A study of Salmo salar with 12 samples.

Results

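The ovary and the liver of female Atlantic salmon (Salmo salar) were compared at the level of CpG methylation. The comparison took all 4 ovary libraries and all 4 liver libraries, 8 of the 12 whole-genome bisulfite libraries of the series, and the 4 pituitary libraries entered only as an outside scale. Each tissue had 2 libraries at T1, just ahead of the switch to long days used to bring on maturation, and 2 at T4, the last sampling under long days, so the time points were balanced. The fish came from a single management group, carried no engineered alleles, and the labels call the libraries of a group biological replicates. They were broodstock females a little over 3 years past fertilisation.

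In bisulfite sequencing unmethylated cytosines are read as thymines, and the share of reads that still show a cytosine is the methylation level of that position. In vertebrates most CpG sites of the genome are methylated, whereas active promoters, enhancers and CpG islands are typically unmethylated or only partly methylated. The maturing fish ovary holds oocytes at successive stages surrounded by granulosa and theca cells, and the liver, mostly hepatocytes, makes the yolk precursor vitellogenin under the control of ovarian oestrogen. Both were sampled as whole tissue, so a different mix of cells and a different level within a cell type cannot be told apart in any result here. The tissue labels were not checked against marker genes, because the positions could not be assigned to genes.

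The 8 libraries listed between 9063730 and 12056957 CpG cytosines each, with 165288494 to 215513378 reads over them and a median of 14 or 15 reads per cytosine. Of 19668423 cytosines listed in any of them, 4268754 were listed in all 8 and form the common set, and 88.1% of these lay on the 29 chromosome-scale sequences of the ICSASG_v2 assembly. Mean coverage of the common cytosines was 25.03 reads in the ovary and 28.1 reads in the liver at T1, and 26.1 reads in the ovary and 23.9 reads in the liver at T4, so the deeper tissue changed between the time points. Pairs of libraries correlated across cytosines with r between 0.685 and 0.769 for ovary with liver, and between 0.8291 and 0.853 for replicates of a group. Cytosines are not independent replicates, and these coefficients are descriptions. Replicates of a group were checked for being duplicates of 1 library. Their counts did not agree within sampling noise (chi-square per degree of freedom of 1.26 to 1.36 over the common cytosines), and all 8 were counted as separate samples.

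The fish codes in the sample titles did not always fit the data. At 201 cytosines that were under 10% in liver T1 replicate 1 and over 70% in the other liver libraries, ovary T1 replicate 1 was under 20% at 88.1% of them, against 17.9% for ovary T1 replicate 2, which carries the same fish code in its title. Liver T4 replicate 2 and ovary T4 replicate 2, which do share a code, matched in this way at 86.1% of 151 cytosines. Liver T4 replicate 1 and ovary T4 replicate 1 also share a code but matched at only 16.2% of 68 cytosines, and liver T1 replicate 2 matched no ovary library at more than 11.3% of 150. Tissue and time point, the only labels the comparison uses, do not rest on these codes.

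The ovary was less methylated than the liver. Mean levels over the common cytosines were 78.3% and 77.9% in the 2 ovary libraries at T1 and 78.3% and 79.1% in those at T4, against 82.0% in both liver libraries at T1 and 81.9% in both at T4. The tissues did not overlap, and the ovary libraries spread about 1 point while the liver libraries lay within 0.2 points of each other. The ovary averaged 78.4% ± 0.502 and the liver 82.0% ± 0.0495 (SD, n = 4 each), a difference of -3.57 points with an exact two-sided permutation p of 0.0286, the smallest that 70 arrangements allow. These arrangements also moved libraries between T1 and T4. They treated the 8 libraries as independent, although 2 ovary and liver pairs matched as 1 fish. The difference was -3.91 points at T1 and -3.23 points at T4, where 2 against 2 libraries cannot give an exact permutation p below 0.333. The T4 difference was 0.686 points less negative than the T1 difference, with an exact permutation p of 0.0556 over 36 arrangements, the smallest they can give. Restricting the set to deeper cytosines, weighting by reads or keeping only chromosome sequences changed neither the direction nor the call. The size did depend on the set. The difference was -4.56 points at 20 or more reads per cytosine and -2.66 points over every cytosine of each library.

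The lower mean came with fewer highly methylated cytosines and more intermediate ones. Cytosines over 80% made up 64.0%, 63.6%, 63.1% and 64.2% of the common set in the ovary libraries (T1 replicates 1 and 2, then T4), against 71.7%, 71.5%, 71.2% and 71.0% in the liver libraries. Intermediate cytosines, between 20 and 80%, were 31.2%, 30.9%, 32.5% and 31.7% in the ovary, against 24.7%, 24.9%, 25.1% and 25.3% in the liver. Cytosines under 20% were 4.80%, 5.50%, 4.39% and 4.07% in the ovary, against 3.69%, 3.59%, 3.76% and 3.69% in the liver. None of the 3 classes overlapped between the tissues (exact two-sided permutation p = 0.0286 for each, and 0.0286 after Benjamini-Hochberg adjustment over the 3). These p-values carry the limits given for the mean level. Averaged over the libraries of a tissue, 12.7% of common cytosines were intermediate in the ovary and high in the liver, and 4.47% were high in the ovary and intermediate in the liver. A full switch was rare in both directions. Only 1307 cytosines were low in the ovary and high in the liver, and 87 were high in the ovary and low in the liver.

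**Figure D1:**
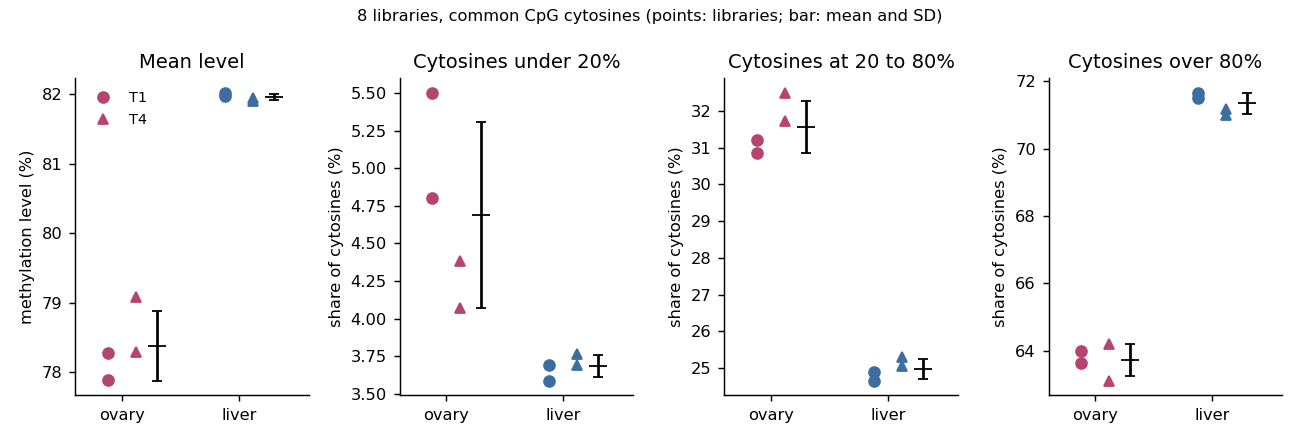
Mean methylation level and shares of low, intermediate and high CpG cytosines (y axes, %) in the ovary and liver libraries, over the 4268754 common cytosines. Circles are T1 and triangles T4 libraries, and the black bars give the mean and SD of 4 libraries. The axes do not start at 0. The ovary libraries lie between 77.9% and 79.1% and the liver libraries between 81.9% and 82.0%.

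At single cytosines the ovary was lower than the liver by more than 20 points at 345886 positions (8.10%) and higher by more than 20 points at 65134 (1.53%). A gap of more than 50 points was found at 43136 cytosines lower and 5948 higher in the ovary. All 4 ovary libraries were below all 4 liver libraries at 391738 cytosines (9.18%), and above them at 92167 (2.16%). Of the 70 arrangements of 4 against 4 libraries, each direction takes up a single arrangement, so some separation arises without a tissue difference. The median difference was -1.56 points, smaller than the mean of -3.57 points.

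Methylated and unmethylated reads were then summed over windows of 1 kb, called tiles here, that held at least 3 common cytosines. Of 571589 tiles tested with edgeR's quasi-likelihood test, 105107 (18.4%) passed an adjusted p of 0.05. Of these, 91646 tiles (16% of those tested) were lower and 13461 (2.36%) were higher in the ovary. The median over all tested tiles was -0.22 on the log2 odds ratio scale, or -1.63 points. With the library medians set equal, an alternative chosen after seeing the data, 89483 tiles passed, 64887 lower and 24596 higher in the ovary. The share of higher tiles among those passing was then 27.5%, against 12.8% without that centring. Counted without a model, all 4 ovary libraries lay below all 4 liver libraries in 98111 tiles (17.2%) and above them in 17834 (3.12%). Some of this separation arises without a tissue difference, as for the cytosines.

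The ovary-lower tiles were mainly intermediate in the ovary, and in most of them, as in most tested tiles, the liver was highly methylated. Their median difference was -17.7 points, 19268 of them (21.0%) differed by more than 30 points and 2365 by more than 50 points. In 81.6% of them the ovary was between 20 and 80%, against 33.5% of all tested tiles. In 67.0% of them the liver was over 80%, against 74.4% of all tested tiles. The ovary-higher tiles had a median difference of 15.7 points, with 2038 (15.1%) beyond 30 points and 192 beyond 50 points. These tiles were mostly intermediate in the liver (74.0%, against 23.4% of all tested tiles). They were over 80% in the ovary about as often as all tested tiles (62.8% against 63.9%). Tiles that were under 20% in the ovary and over 80% in the liver numbered 19, and 1 tile showed the reverse. Coverage was nearly the same in both classes, with a median ratio of ovary to liver reads, scaled to library totals, of 1.01 in the higher and 0.984 in the lower tiles. Replicates of a group differed by a median of 3.44 to 3.87 points per tile over all tested tiles, most of which were highly methylated.

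**Figure D2:**
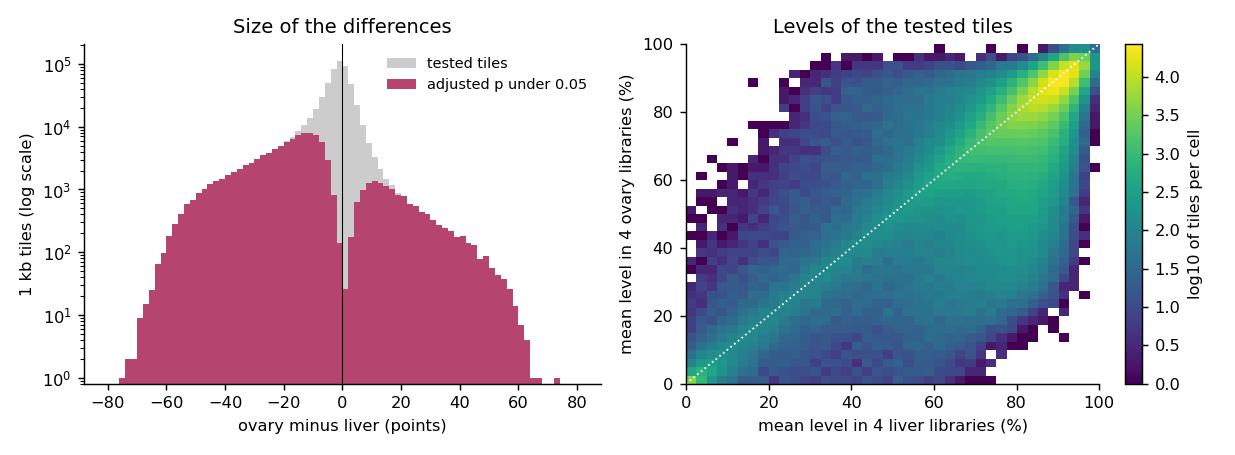
Left, number of 1 kb tiles (log scale) by ovary minus liver difference in points, for all tested tiles (grey) and those with an edgeR adjusted p under 0.05 (red). Right, mean level of each tested tile in the 4 ovary libraries (y, %) against the 4 liver libraries (x, %), shaded by the log10 number of tiles, with a dotted line of equality. Below the line a broad shoulder extends at intermediate ovary and high liver levels. In 67.0% of the 91646 ovary-lower tiles the liver was over 80%, against 74.4% of all tested tiles.

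The 5 tiles with the largest losses and the 5 with the largest gains in the ovary, among called tiles on chromosome sequences with at least 10 common cytosines, at most 3 times the median coverage and no overlap between tissues, show what the extremes looked like. Loss and gain stand for lower and higher than in the liver, and these 10 tiles held between 171 and 679 reads per library. The largest loss lay on CM003284.1 from 42430001 to 42431000 (20 common cytosines). Its level was 5.14% and 3.10% in the ovary libraries at T1 and 6.48% and 9.48% at T4, against 70.3% and 76.3% in the liver libraries at T1 and 77.7% and 66.5% at T4. The tissues were separated at each of its 20 cytosines (difference -66.6 points, log2 odds ratio -5.46, edgeR adjusted p = 5.10e-11), and the pituitary was low too, at 5.19 to 10.4%.

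The next lay on CM003292.1 from 57214001 to 57215000 (12 cytosines). It was at 5.49% and 2.92% at T1 and 10.2% and 9.88% at T4 in the ovary, against 86.2% and 74.9% at T1 and 66.4% and 65.6% at T4 in the liver (edgeR adjusted p = 2.14e-10). The tile directly before it also differed, by -58.05 points. The most complete loss of the 5 was on CM003298.1 from 68032001 to 68033000, with 2.09% ± 1.45 in the ovary and 65.7% ± 9.08 in the liver (SD, n = 4 each). The pituitary was intermediate there, at 24.9 to 35.7%. The other 2 lay on CM003286.1 from 18801001 to 18802000, where the ovary was at 25.3% ± 12.7 and the liver at 90.6% ± 1.37 (SD, n = 4 each), and on CM003280.1 from 27168001 to 27169000, at 16.2% ± 8.55 in the ovary and 79.8% ± 2.70 in the liver (SD, n = 4 each). In all 5 losses the T4 ovary libraries were higher than the T1 ovary libraries. On CM003286.1 they were at 33.0% and 39.0% at T4, after 12.0% and 17.4% at T1, and the interaction with time point did not pass (edgeR adjusted p = 0.707).

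Among the gains, the largest difference was 56.0 points on CM003289.1 from 13339001 to 13340000 (10 cytosines). The ovary libraries were at 86.7% and 87.9% at T1 and 79.7% and 68.1% at T4, against 14.4% and 21.6% at T1 and 25.3% and 37.2% at T4 in the liver libraries (log2 odds ratio 3.79, edgeR adjusted p = 4.43e-09). Here the pituitary was on the side of the liver, at 14.7 to 23.6%. On CM003280.1 from 57648001 to 57649000 (12 cytosines) the ovary was at 89.9% and 86.4% at T1 and 88.4% and 88.5% at T4. The liver was at 31.4% and 42.4% at T1 and 28.3% and 29.6% at T4 (edgeR adjusted p = 9.53e-10), and the pituitary was on the side of the ovary, at 85.04 to 88.9%. The other 3 gains, on CM003284.1 from 84029001, CM003296.1 from 52988001 and CM003300.1 from 43201001, each 1000 bases long, differed by 53.5, 52.9 and 51.5 points. In all 10 tiles the tissues were separated at every common cytosine, and the T1 and T4 contrasts each passed in the fit of all 8 libraries. The tiles were chosen in these same libraries for being called, separated and largest in difference. Their levels, separation and p-values are therefore descriptions.

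The same comparison was made within each time point. At T1 74696 tiles passed (13.1%), 66423 lower (11.6%) and 8273 higher (1.45%) in the ovary. At T4 53215 passed (9.31%), 46438 lower (8.12%) and 6777 higher (1.19%). The T4 count depended on single libraries. It was 27581 without ovary T4 replicate 1, 28274 without liver T4 replicate 1 and 33445 without liver T4 replicate 2, where the lone library of that arm is assumed to vary like the other groups.

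The T1 and T4 levels share no library, so tiles called at 1 time point can be read at the other. The calls, however, came from 1 fit that shared its estimate of the spread between replicates over all 8 libraries. Being called at both time points is therefore not independent. The tiles called lower at T1 averaged 57.8% and 61.4% in the ovary libraries at T4, against 79.5% and 78.9% in the liver libraries at T4. They were lower at T4 in 97.6% of cases, and 37145 of them (55.9%) were also called lower at T4, with 15 called higher. With T1 and T4 fitted separately, 63825 tiles were called lower at T1. Of these, 36420 (57.1%) were also called lower at T4, with 14 called higher. The tiles called lower at T4 stood at 52.0% and 49.8% in the ovary, against 79.8% and 79.4% in the liver at T1, and 98.5% of them were lower at T1. Tiles called higher at T1 kept that direction at T4 in 92.9% of cases, and tiles called higher at T4 had it at T1 in 94.9%. The shares for lower tiles include the general shift, since all tested tiles averaged -4.13 points at T1 and -3.40 points at T4.

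In ovary-lower tiles chosen at T4, the loss was larger at T1. Tiles called lower at T4 differed by -25.4 points there and by -28.7 points at T1, where they had not been selected. Tiles called lower at T1 differed by -28.4 points there and by -19.5 points at T4, but choosing tiles at T1 favours large values there. Ovary-higher tiles differed by less where they had not been selected. Those called at T1 went from 23.8 points to 18.8 points at T4, and those called at T4 from 26.4 points to 21.8 points at T1. For the interaction of tissue and time point, 33707 of 571589 tiles had an unadjusted edgeR p under 0.05, where chance alone gives a share of about 0.05. After adjustment the interaction passed in 2 tiles (0.00035% of those tested), both on unplaced sequences, and in 0 with limma. The count was 57 without ovary T1 replicate 1, 53 without liver T1 replicate 1, 28 without ovary T4 replicate 2, 24 without liver T4 replicate 2, and 1 without liver T1 replicate 2 or liver T4 replicate 1. On AGKD04016877.1 from 6001 to 7000 the ovary libraries were at 80.4% and 74.4% at T1 and 79.7% and 85.7% at T4, against 81.4% and 85.6% at T1 and 33.0% and 38.7% at T4 in the liver libraries. That tile was covered by 66.1 reads per cytosine, above 3 times the median tile of 21.7 reads. On AGKD04201580.1 from 1 to 1000 the mean of 59.4 reads per cytosine was uneven between the tissues. The ovary libraries held 1104 reads in all and the liver libraries 7450. In that tile the ovary was at 96.7% and 89.97% at T1 and 98.3% and 96.7% at T4, against 97.0% and 98.4% at T1 and 79.97% and 79.99% at T4 in the liver. Its call was lost without ovary T1 replicate 2, ovary T4 replicate 1, liver T1 replicate 2 or liver T4 replicate 1 (edgeR adjusted p = 0.586, 0.132, 0.185 and 0.154). Next in order was a chromosomal tile on CM003293.1 from 531001 to 532000, which did not pass (edgeR adjusted p = 0.0626). Its ovary libraries were at 4.09% and 5.98% at T1 and 28.4% and 24.7% at T4, against 71.4% and 79.6% at T1 and 62.2% and 49.5% at T4 in the liver libraries.

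The difference depended on the starting level. To keep the level that sorts the tiles apart from the difference that is read, tiles were sorted by their liver level at 1 time point and compared at the other. At T4, tiles that were at 60 to 80% in the liver at T1 stood at 68.0% and 69.3% in the ovary, against 74.2% and 74.1% in the liver, a mean difference of -5.46 points over 107871 tiles. At T1 the corresponding tiles were at 68.0% and 67.4% in the ovary, against 74.9% and 74.8% in the liver, -7.19 points over 109810 tiles. Above 90% in the liver the difference was -2.31 points at both time points. At the lower end the mean changed sign. Tiles at 20 to 40% in the liver at T1 were at 36.6% and 38.5% in the ovary, against 31.4% and 32.7% in the liver at T4, 5.51 points higher over 7990 tiles. At T1 the gain was smaller, with 35.9% and 34.4% in the ovary, against 32.5% and 33.9% in the liver (1.95 points over 8280 tiles). This T1 gain was one of means alone. The median difference at T1 was -0.73 points at 20 to 30% and -0.76 points at 30 to 40% in the liver, and between -0.87 and -0.80 points at 5 to 20%, whereas the medians at T4 were 2.26 points at 20 to 30% and 2.37 points at 30 to 40%. In tiles with at least 10 common cytosines, the T1 mean at 30 to 40% was itself negative, at -2.08 points. Below 20% the ovary mean was higher by 1.10 points at T4 and 0.733 points at T1. The ovary and liver libraries did not overlap in any of these classes at either time point. Between 40 and 60% this held at T1 only, at -3.77 points, and the tissues overlapped at T4, at -0.912 points.

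Sorting by liver level sets the liver at an extreme in the outer classes, so the tiles were also sorted by the mean level of the 4 pituitary libraries, which took no part in the comparison. On this scale the ovary was lower in every class, also at 20 to 40%, where sorting by liver level gave a higher ovary mean. The sign in the low classes thus depended on the tissue that sorted the tiles. Sorting by pituitary level likewise sets the pituitary at an extreme in the outer classes. The gap was widest in tiles that were weakly or partly methylated in the pituitary. In the 14464 tiles at 20 to 40% in the pituitary, the ovary averaged 46.7% and 45.6% at T1 and 48.5% and 51.1% at T4. The liver averaged 62.5% and 62.4% at T1 and 62.04% and 61.4% at T4. The difference was -14.1 points (-16.3 points at T1 and -11.9 at T4), and 50.8% of these tiles were called lower in the ovary and 4.27% higher. Of the 495114 tiles that could be read in all 12 libraries, 84023 were called lower and 12386 higher. Over the wider set of 571589 tested tiles the shares were 16% and 2.36%. At 5 to 20% in the pituitary the ovary averaged 28.6% ± 2.06 and the liver 41.2% ± 0.269 (SD, n = 4 each). Of the 8613 tiles in that class, 12.0% were over 60% in the ovary and 35.6% were over 60% in the liver. The gap narrowed to -2.72 points at 80 to 90% and -1.07 points above 90%. It was -2.54 points in the 7364 tiles under 5%, at 3.73% ± 0.0229 in the ovary and 6.27% ± 0.182 in the liver (SD, n = 4 each). The pituitary set needed cytosines listed in all 12 libraries, and the file of pituitary T1 replicate 1 holds no cytosine above 150 reads.

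The difference was smaller in tiles dense in CpG. Density was counted as the cytosines per tile listed in any of the 8 files, which depends on coverage as well as on sequence. In the 77140 tiles with 5 to 7 listed cytosines the ovary averaged 75.6% ± 0.614 and the liver 80.2% ± 0.0908 (SD, n = 4 each), a difference of -4.58 points. It was -4.12 points at 3 or 4 listed cytosines, -3.65 points at 15 to 19, -2.80 points at 20 to 29, -1.57 points at 30 to 39 and -0.703 points at 40 to 59 cytosines. In the 1266 tiles with 60 to 79 listed cytosines the difference was -0.351 points and the tissues overlapped, and in the 477 tiles with 80 or more it was -0.589 points with no overlap. Counted by common cytosines instead, it lay between -3.59 and -3.95 points up to 14 cytosines and was -2.48 points at 20 to 29. The order was the same at T1 (-5.02 points at 5 to 7 and -0.760 at 40 to 59) and at T4 (-4.15 and -0.645). The share of tiles called lower in the ovary was 17.1% at 5 to 7, 17.4% at 10 to 14 and 5.09% at 40 to 59 cytosines, while the share of higher tiles lay between 2.57% and 1.26% over those classes. By common cytosines the share called lower went the other way at first, with 12.0% at 3, 20.4% at 15 to 19 and 18.8% at 20 to 29 cytosines. Denser tiles were also more methylated, at 86.9% in the ovary and 87.6% in the liver in the class of 40 to 59. Among tiles whose mean over both tissues was 80 to 90%, the difference stayed between -1.67 and -2.02 points up to 29 listed cytosines and was -0.713 points at 40 to 59, and the share called lower was 6.85% at 3 or 4, 11.2% at 20 to 29 and 5.95% at 40 to 59.

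**Figure D3:**
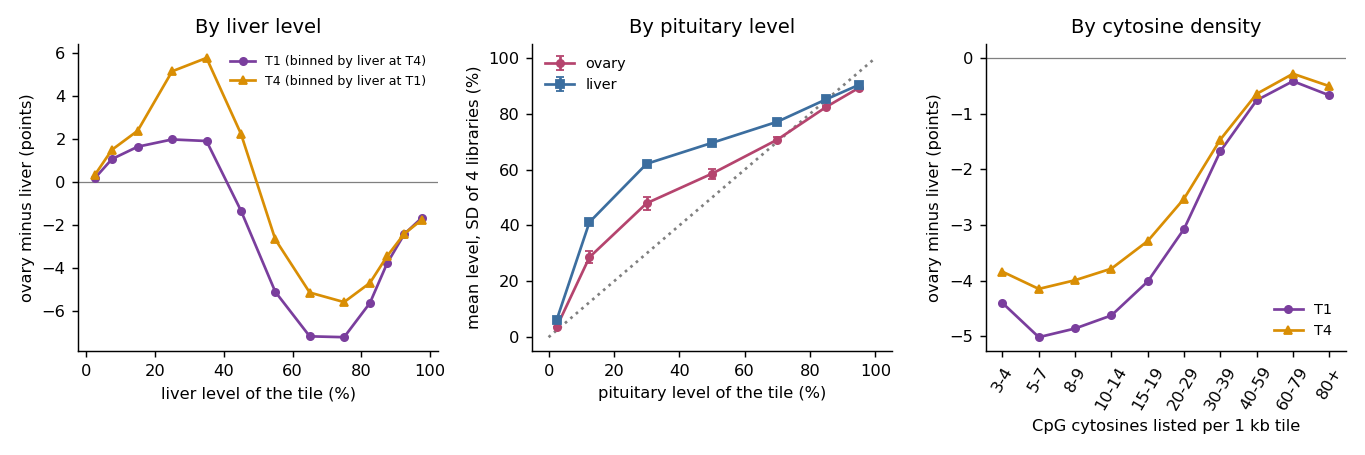
Left, mean ovary minus liver difference (points) of 1 kb tiles by their liver level at the other time point, for T1 and T4. Middle, mean level of the ovary and of the liver (SD of 4 libraries) by pituitary level, with a dotted line of equality. Right, mean difference by number of CpG cytosines listed per tile. By liver level the mean difference is positive below 40% at T1, where the medians are not, and below 50% at T4. The gap by pituitary level is widest at 20 to 40% (-14.1 points), and it shrinks to -0.703 points at 40 to 59 cytosines per tile.

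Tiles that were weakly methylated in the pituitary, and the tiles around them, showed the same gradient in space. The 15071 chromosomal tiles under 20% in the pituitary averaged 17.1% ± 1.11 in the ovary and 25.03% ± 0.210 in the liver (SD, n = 4 each), a difference of -7.89 points. Tiles 1 kb away from such a tile differed by -5.81 points, at 64.6% in the ovary and 70.4% in the liver, and tiles 2 kb away by -4.03 points. From 3 to 5 kb outwards the difference was flat, between -3.65 and -3.89 points up to 500 kb. Both kinds of called tiles were more frequent at the centre. In the low tiles themselves 30.9% were lower and 5.998% higher in the ovary, against 15.4% and 2.14% beyond 100 kb.

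At the tiles called between ovary and liver, the pituitary fell between the other tissues on average. Over the 84023 ovary-lower tiles that could be read in all 12 libraries, the mean was 60.2% ± 3.02 in the ovary, 67.9% ± 0.620 in the pituitary and 80.8% ± 0.350 in the liver (SD, n = 4 each). In 45.8% of them the pituitary was nearer to the ovary than to the liver, against 49.9% of tiles not called. It lay between the tissues in 52.7%, below both in 26.1% and above both in 21.1%. Over the 12386 ovary-higher tiles the mean was 77.3% ± 0.278 in the ovary, 73.2% ± 0.575 in the pituitary and 58.9% ± 0.928 in the liver (SD, n = 4 each). The pituitary was nearer to the ovary in 73.3% of these tiles. It lay between the tissues in 46.2%, above both in 40.4% and below both in 13.4%. Since the tiles were chosen for the gap between ovary and liver, these shares are descriptions.

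The differences were clustered along the chromosomes over short distances. Of tiles next to an ovary-lower tile, 36.4% were themselves ovary-lower, against 17.6% of all 175763 directly adjacent tiles. Next to an ovary-higher tile, 17.3% were ovary-higher, against 2.35% of all. Opposite calls were less frequent side by side than elsewhere, with 1.62% ovary-higher tiles next to an ovary-lower one and 12.3% ovary-lower tiles next to an ovary-higher one. Neighbouring tiles share fragments and libraries, so the same count was taken with the first tile called at T1 and the next at T4. Both calls still came from the fit of all 8 libraries. The next tile was then lower in 23.9% after a lower tile, against 9.11% of all, and higher in 13.7% after a higher tile, against 1.17% of all. At a distance of 10 kb the share of ovary-lower tiles was 20.5% against 16.9%, and that of ovary-higher tiles 5.25% against 2.47%. At 200 kb they were 17.7% against 16.6% and 2.54% against 2.45%, and at 1000 kb 17.5% against 16.8% and 2.28% against 2.46%.

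Between single cytosines the differences were read as correlations, which cannot be set against the shares above. The difference at T1 and the difference at T4 correlated with r = 0.595 at the same cytosine, 0.548 at 2 to 10 bases, 0.453 at 51 to 100 bases, 0.259 at 201 to 500 bases and 0.117 at 501 to 1000 bases. Beyond 1 kb it was 0.0537, and beyond 50 kb it was 0.00727. Cytosines 1 base apart, of which there were only 3836 pairs in the draw, had an r of 0.339. For tiles, the T1 and T4 differences correlated with r = 0.775 at the same tile, 0.254 at 1 kb, 0.083 at 2 kb and 0.0405 at 10 kb. Points of these correlations share libraries within a time point but none between them.

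**Figure D4:**
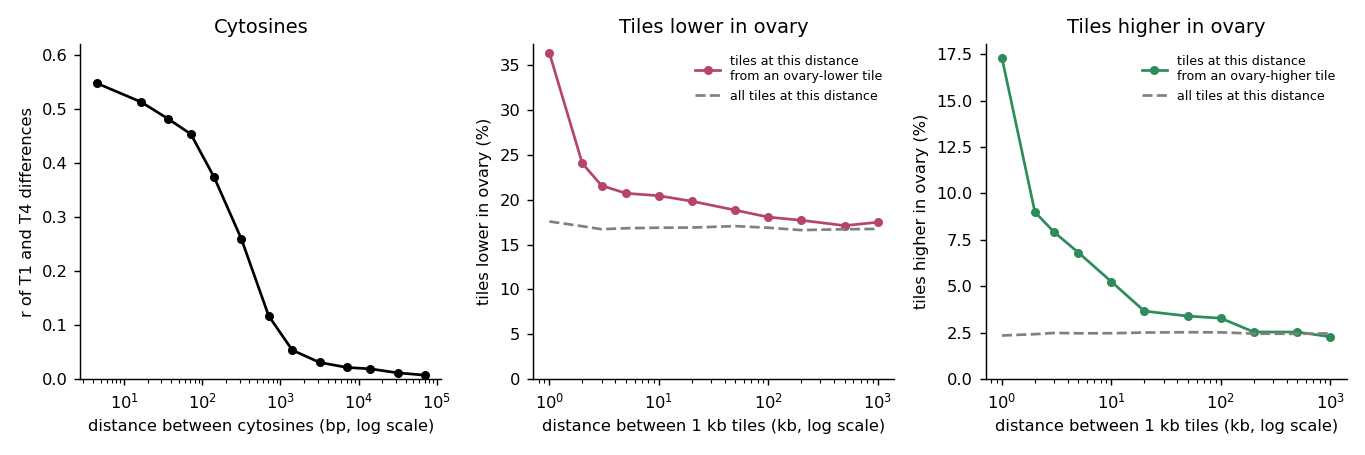
Left, correlation between the T1 difference at a cytosine and the T4 difference at another, by their distance (bp, log scale, drawn from 2 bases). Middle and right, share of 1 kb tiles that were lower or higher in the ovary at a given distance (kb, log scale) from a tile of the same class, with the share among all tiles at that distance dashed. The correlation drops from 0.548 to 0.0537 between 2 to 10 bases and 1 to 2 kb, and the curve of ovary-higher tiles reaches its dashed line between 200 and 1000 kb while that of ovary-lower tiles stays above its own (17.5% against 16.8% at 1000 kb).

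Joined into runs of directly adjacent tiles of 1 class, 22.8% of ovary-lower tiles and 10.1% of ovary-higher tiles had a neighbour of their class. Runs of at least 3 tiles numbered 1248 for ovary-lower and 62 for ovary-higher tiles. The longest were 7 and 6 tiles, and a tile with fewer than 3 common cytosines ends a run, so these lengths are limited by coverage. The levels of the runs named below are descriptions, since the calls chose them.

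The longest ovary-lower run, of 7 tiles, lay on CM003279.1 from 153808001 to 153815000 (32 common cytosines). It averaged 29.3% and 26.5% at T1 and 29.5% and 31.4% at T4 in the ovary libraries, against 72.7% and 72.1% at T1 and 72.8% and 72.1% at T4 in the liver libraries. The loss was concentrated in 4 consecutive tiles, starting at 153810001, which were at 1.83%, 1.79%, 6.34% and 3.96% in the ovary and at 68.8%, 61.4%, 60.5% and 70.6% in the liver. The first 2 tiles were at 61.5% and 81.5% in the ovary, against 80.4% and 89.95% in the liver, and the last was at 47.2% in the ovary, against 75.1% in the liver. The pituitary averaged 35.5% over the run.

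A second run of 7 tiles on the same sequence, from 77046001 to 77053000, started at a tile with 0.658% in the ovary and 35.2% in the liver and differed by less towards its far end, with 60.4% in the ovary and 82.5% in the liver. Over the run the ovary libraries were at 46.4%, 45.2%, 42.9% and 48.4%, and the liver libraries at 75.8%, 76.6%, 75.7% and 67.8%. On CM003282.1 from 19612001 to 19618000 (6 tiles, 65 cytosines) the ovary libraries were at 41.4% and 33.4% at T1 and 46.0% and 54.1% at T4, against 87.4% and 87.0% at T1 and 84.1% and 87.0% at T4 in the liver libraries. The pituitary was on the side of the liver there, at 77.6 to 85.5%. The fourth run, 6 tiles on the unplaced sequence AGKD04010849.1 from 32001 to 38000, was at 32.1% ± 11.1 in the ovary and 73.4% ± 2.099 in the liver (SD, n = 4 each), with the T1 ovary libraries at 31.2% and 17.5% and those of T4 at 35.4% and 44.1%.

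The ovary-higher runs differed in how much methylation the liver had. The longest, 6 tiles on CM003279.1 from 108292001 to 108298000 (137 cytosines), was at 15.99% and 16.5% at T1 and 11.7% and 6.80% at T4 in the ovary. The liver was nearly unmethylated there, at 4.15% and 4.11% at T1 and 3.62% and 4.55% at T4, and the pituitary was at 2.35 to 3.78%. On CM003281.1 from 57218001 to 57223000 (5 tiles) the ovary was at 69.4% and 77.3% at T1 and 69.4% and 72.0% at T4, against 33.7% and 39.0% at T1 and 33.0% and 31.9% at T4 in the liver. On CM003289.1 from 30966001 to 30971000 the averages were 36.3% ± 3.63 in the ovary and 7.62% ± 1.39 in the liver, and on CM003292.1 from 29134001 to 29139000 they were 55.2% ± 2.68 in the ovary and 32.9% ± 4.46 in the liver (SD, n = 4 each). Averaged over the run, the libraries of the tissues did not overlap in any of the 8 runs, but in single tiles they did. In the longest ovary-higher run, ovary T4 replicate 2 was at 1.17% in the tile starting at 108295001, against 2.84 to 3.98% in the liver libraries. It was below all liver libraries in the next tile too. The tissues also overlapped in the tiles starting at 108297001 and 77049001 on CM003279.1 and at 29138001 on CM003292.1.

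In windows of 100 kb the ovary was lower nearly everywhere. Of 15909 windows with at least 20 tested tiles, 15156 had a lower ovary mean, the median difference was -3.56 points, and all ovary libraries lay below all liver libraries in 11541 (72.5%). The ovary was above in all libraries in 109 windows (0.685%). Window differences at T1 and T4 correlated with r = 0.859 across windows, a description that shares no library but shares positions. A mean gain of more than 5 points was found in 21 windows. Their liver level had a median of 46.5% and ran between 14.9% and 76.5%, against a median of 82.7% for all windows. Choosing windows on the same liver libraries favours low liver levels. Of 62 windows at 0 to 60% in the liver at T1, 25 were higher in the ovary at T4 (mean difference 1.37 points). Of 65 windows at 0 to 60% in the liver at T4, 21 were higher at T1 (mean 1.48 points). Over both time points 4.73% of all windows had a higher ovary mean.

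The largest gain, 24.5 points, was on CM003291.1 from 35600001 to 35700000. Its ovary libraries were at 49.4% and 52.0% at T1 and 38.7% and 37.5% at T4, against 19.96% and 20.9% at T1 and 19.1% and 19.7% at T4 in the liver libraries. There 20 of 30 tiles were called higher and 0 lower in the ovary. The pituitary was at 16.1 to 17.4%, close to the liver. The windows directly beside this window differed by -2.36 and -0.599 points, and the next ones out by -11.8 and -4.18 points. On CM003281.1 from 57400001 to 57500000 the ovary was at 43.8% and 43.8% at T1 and 37.6% and 38.2% at T4, against 17.0% and 19.8% at T1 and 16.5% and 18.1% at T4 in the liver, with the pituitary at 9.30 to 11.8%. The window before it was also higher, by 5.92 points. The third, on CM003284.1 from 40700001 to 40800000, was at 55.3% ± 2.67 in the ovary and 34.0% ± 1.299 in the liver (SD, n = 4 each), and the window before it was higher by 15.5 points. In all 3 the pituitary mean lay below the liver mean, and the ovary was the most methylated of the tissues.

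The 3 windows with the largest losses had liver means of 77.6%, 82.2% and 83.0%, against the median of 82.7% for all windows. On CM003279.1 from 153800001 to 153900000 the ovary was at 57.7% and 56.4% at T1 and 58.2% and 59.8% at T4, against 77.7% and 78.5% at T1 and 78.4% and 76.0% at T4 in the liver, a difference of -19.6 points. This window holds the longest ovary-lower run. On CM003281.1 from 76900001 to 77000000 the means were 63.6% ± 3.06 in the ovary and 82.2% ± 1.40 in the liver, and on CM003280.1 from 9500001 to 9600000 they were 64.4% ± 2.40 in the ovary and 83.0% ± 0.320 in the liver (SD, n = 4 each). In the last of these 27 of 44 tiles were lower and 0 higher in the ovary. The pituitary was lower than the liver in all 3, at 59.3 to 61.5%, 67.2 to 72.2% and 73.9 to 75.8%.

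**Figure D5:**
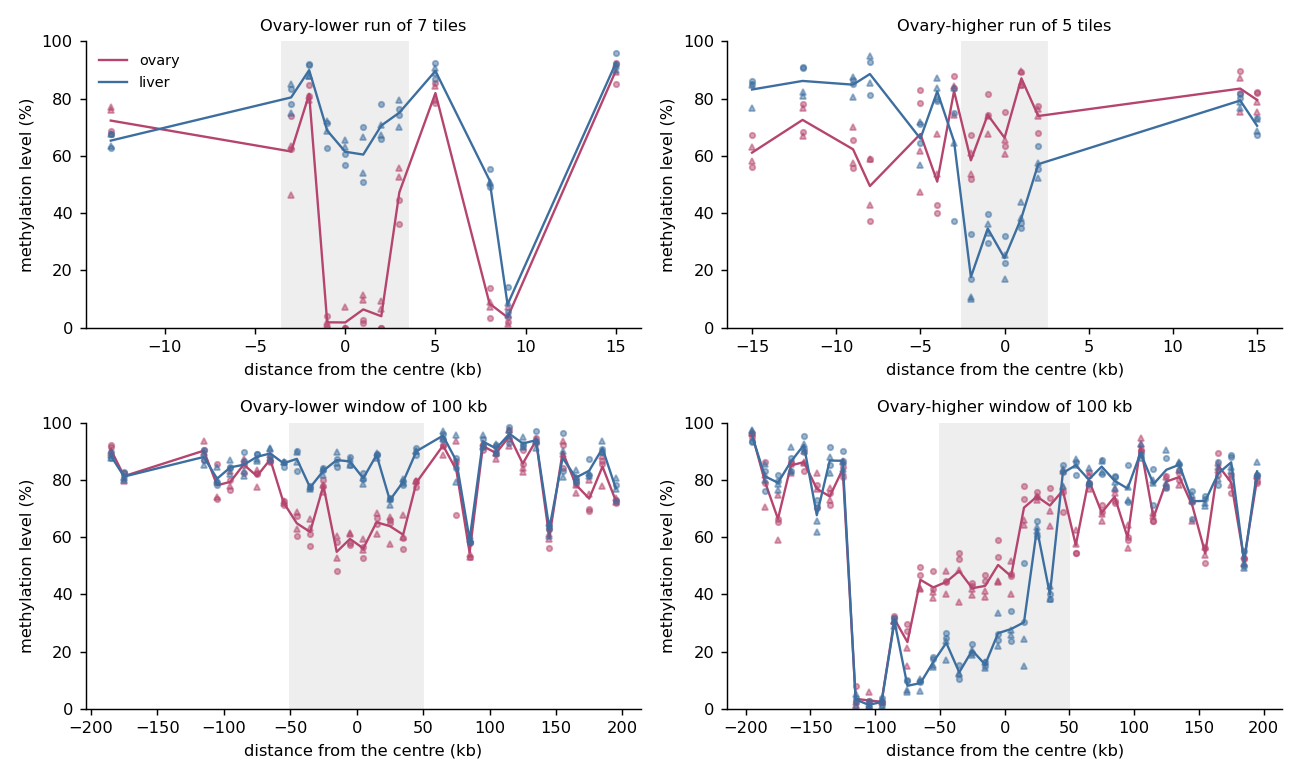
Methylation level (%) of 1 kb tiles around 2 named runs (top) and of 10 kb averages around 2 named 100 kb windows (bottom), against distance from the centre in kb. Circles are T1 and triangles T4 libraries, lines join the means of 4 libraries, and grey marks the run or window. On the left are the run on CM003279.1 and the window on CM003280.1, both lower in the ovary. On the right are the run on CM003281.1 and the window on CM003284.1, both higher in the ovary. The tissues also differ outside the grey areas. Several tiles left of the run on CM003281.1 were lower in all ovary libraries, the reverse of the run itself. The 100 kb windows directly beside the grey window differed by -5.21 and -3.29 points on CM003280.1. On CM003284.1 they differed by 15.5 points before and -7.79 points after the grey window.

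No chromosome departed from the general direction. All 29 had lower ovary than liver levels in all libraries, between -4.97 points on CM003285.1 and -3.33 points on CM003299.1. On CM003285.1 the ovary averaged 76.6% ± 0.691 and the liver 81.5% ± 0.0441, and on CM003299.1 the ovary averaged 79.2% ± 0.464 and the liver 82.6% ± 0.0845 (SD, n = 4 each). The share of tiles lower in the ovary ranged between 14.8% and 20.4% over the chromosomes, and the share of higher tiles between 1.84% and 2.89%. The order of the chromosomes was alike at both time points, with r = 0.976 between their T1 and T4 differences as a description over 29 sequences. The unplaced sequences together differed by -2.59 points, with a mean coverage of 34.2 reads per cytosine.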

How the data were processed

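The 8 libraries are whole-genome bisulfite sequences of ovary and liver DNA. Per the labels and the study's methods, the authors trimmed reads with Trim Galore 0.5, aligned them with BS-Seeker2 2.1.8 and Bowtie2 to ICSASG_v2, and removed duplicates with Picard. The deposited values are raw counts of all reads and of methylated reads per CpG cytosine with at least 10 reads. The files carry no strand, and only 3.83 to 5.80% of positions had a listed neighbour 1 base on.

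Groups came from the sample descriptions. Library means and shares were compared by exact permutation tests. Tiles of 1 kb were tested with edgeR 4.0.16 (library effects plus 4 group terms, Benjamini-Hochberg over all tiles), with limma 3.58.1 as an alternative. On simulated 4 against 4 data over 20000 tiles, edgeR recovered 94% of the losses and 100% of the gains of 30 points. It recovered 36% and 40% of those of 20 points, and called 4 of 19800 unshifted tiles. Each kind of shift was planted in 50 tiles of intermediate level, and the spread between replicates was assumed. The real tiles were mostly highly methylated and many more differed, so these are not detection rates of the comparison. Precision given by read depth covers counting error only. Replicate numbers were not taken to pair the tissues. The correlation of deviations between libraries of the same number was 0.0724 at T1 and 0.0482 at T4, and 2 of the 4 same-numbered pairs matched as 1 fish. The named tiles are the 5 largest losses and gains meeting the conditions given with them, plus the 3 smallest interaction p-values. The named runs are the 4 longest in each direction (ties, such as the 9 ovary-lower runs of 6 tiles, were ordered by mean absolute difference), and the named windows the 3 largest differences in each direction. The members and rules were chosen with earlier results of these data known. Lists of reproductive and liver genes, drawn up in case positions could be assigned to genes, were not used, as no annotation of ICSASG_v2 was at hand.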

Additional observations from a re-analysis of the deposited data

Results flagged for a closer look

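In 2 of 62 groups of 4 libraries examined (library means and shares, named tiles, runs and windows), 1 library stood apart from the other 3 by Dixon's criterion, and chance alone flags about 1 group in 20. In the run on CM003279.1 from 77046001 to 77053000, liver T4 replicate 2 was at 67.8%, against 75.7 to 76.6% in the other liver libraries. In the run on CM003282.1 from 19612001 to 19618000, liver T4 replicate 1 was at 84.1%, against 87.0 to 87.4% in the others.

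The interaction of tissue and time point passed at 2 tiles on unplaced sequences. On AGKD04016877.1 from 6001 to 7000 its log2 value was 3.67 (edgeR adjusted p = 3.76e-05), with the ovary above the liver by 46.8 points at T4 and below it by 6.07 points at T1. On AGKD04201580.1 from 1 to 1000 it was 4.94 (edgeR adjusted p = 0.0156), with the ovary 17.5 points above the liver at T4 and 4.33 points below it at T1, and the reads per library ran between 214 and 3554. Neither passed with limma. The call on AGKD04201580.1 was also lost at 10 cytosines per tile (edgeR adjusted p = 0.0512) and without any 1 of 4 libraries (edgeR adjusted p = 0.132 to 0.586), while that on AGKD04016877.1 held without each library in turn.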

How the results depend on the processing

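Mean levels, class shares and the named tiles kept their direction under every alternative run. With each library left out in turn, the mean difference lay between -3.80 and -3.41 points (-4.11 to -3.72 at T1, -3.62 to -2.84 at T4), the low share between 0.738 and 1.22 points, the intermediate share between 6.28 and 6.83 and the high share between -7.75 and -7.39. Without any 1 of the liver libraries, the exact permutation p of the low share was 0.0571. Tiles passing then numbered 86420 to 94874 over both time points, 51106 to 58181 at T1, 27581 to 41027 at T4 and 1 to 57 for the interaction.

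The replicate numbers were not taken to pair the tissues, as only 2 of the 4 same-numbered pairs matched as 1 fish. A replicate block by number with edgeR gave 108755, 78616 and 57819 tiles over both time points, at T1 and at T4, and 69 for the interaction. With limma the block by number gave 78035, 45848, 18341 and 0, and a replicate block by the fish code of the titles 52286, 10338, 13650 and 0. Without a block, limma gave 87439, 55532, 31119 and 0. Treating the 2 matched ovary and liver pairs as correlated, an alternative added after seeing the data, limma gave 91801, 59404, 34843 and 0. For limma's interaction counts of 0, 34032 of 571589 tiles had an unadjusted p under 0.05 without a block, against 33707 with edgeR. Chance alone gives a share of about 0.05.

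Fewer tiles could be tested at 20 reads per cytosine (127479), where 31916, 24494, 19496 and 1 passed, and at 10 cytosines per tile (93721), where 20592, 14777, 11133 and 1 passed. Without tiles over 3 times the median coverage the interaction passed in 1. At 10 cytosines per tile, the difference of tiles at 20 to 30% in the liver was 0.884 points at T1 and 2.83 at T4, against 1.99 and 5.16. At 30 to 40% it turned negative at T1, at -2.08 points against 1.92, and was 3.28 at T4 against 5.78. At 40 to 50% it was -4.46 at T1 against -1.31, and 0.230 at T4 against 2.26. At 0 to 5% it was -0.043 at T1 against 0.182, and 0.0750 at T4 against 0.331. At 70 to 80% it was -8.32 and -6.30, against -7.21 and -5.57. With tiles of 5 kb, 29.5% of neighbours of ovary-lower tiles and 8.20% of those of ovary-higher tiles were of the same class, against 22.9% and 2.82% of all. The causes were not tested. The class of 5 to 7 listed cytosines has no tiles with 10 common cytosines, so that alternative could not be run there.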
